A study of Mus musculus with 22 samples.

Results

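H3K4me3, the trimethyl mark on lysine 4 of histone H3, was read at gene starts in LSK cells of mouse fetal liver by CUT&RUN, which releases the DNA next to a bound antibody. The deposited table counts reads around every annotated transcript start, in windows of 3 kb per the labels. One window was kept for each of 52453 genes, the one with the highest mean count over the 4 libraries, and the 15902 windows (30.3%) with a mean of at least 16 CPM (counts scaled to a library total of 1000000) were taken as marked. The KO libraries (2) came from E14.5 embryos of Vav-Cre Mettl3fl/fl mice and the WT libraries (2) from E14.5 Mettl3fl/fl embryos that carry no Vav-Cre. The Vav promoter drives Cre in blood cells. Whether other cells of a KO embryo keep Mettl3 was not tested. All libraries were made from cells sorted as Lin-, Sca-1+ and c-Kit+, where the stem cells of the blood and early progenitors are found. Bulk RNA-seq of the same fraction (3 KO and 3 WT libraries) is set beside the mark. The series has 22 samples in all.

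Nucleosomes at the starts of active genes carry H3K4me3, which is written by the SET1 and MLL (Kmt2) complexes and removed by Kdm5 demethylases. Starts rich in CpG often carry the mark also when little RNA is made from them, while starts poor in CpG tend to gain it with transcription. Mettl3 is the catalytic subunit of the complex that writes N6-methyladenosine into RNA, and it does not itself modify histones.

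The mark split genes into a group at background and a group with signal. The marked windows had a median of 50.1 CPM (quartiles 33.3 and 67.4) and the other genes 1.82 CPM. Of 21925 protein-coding genes 12213 were marked (55.7%), against 705 of 5071 lincRNA genes (13.9%) and 275 of 8610 processed pseudogenes (3.19%). The windows just inside the limit were those of Tcf15 (16.005 CPM), Dkk2 (16.011) and Slc22a20 (16.013), and those just outside were Prkd1 (15.993), Matn3 (15.993) and Ror1 (15.988). Starts can lie close together: 7464 marked windows began within 3 kb of another and share reads with it, and the marked windows form 11822 separate loci.

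**Figure D1:**
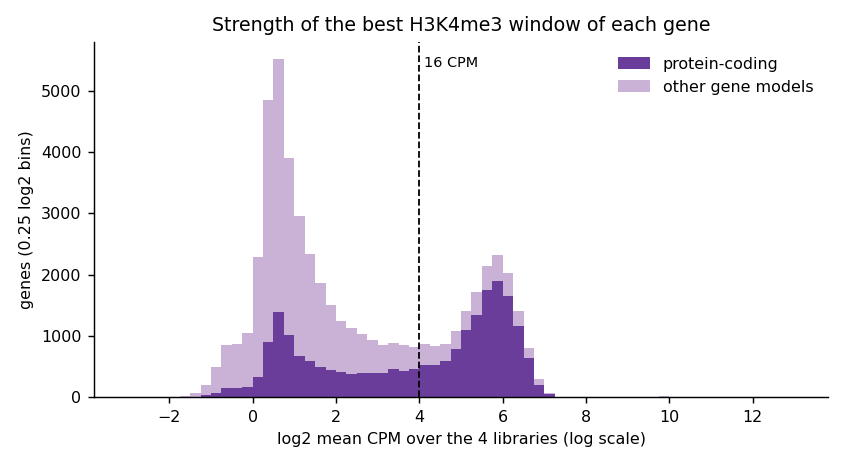
Number of genes (vertical axis) by the mean CPM of their strongest H3K4me3 window over the 4 libraries (horizontal axis, log2), stacked for protein-coding genes and other gene models. The dashed line marks 16 CPM; 15902 of 52453 genes lie to its right.

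The sort label was checked against the genes of the sort. Normalised CPM are scaled with TMM factors over the marked windows, and plain CPM by the total over all genes' windows. Kit, the receptor c-Kit, had 105 and 103 normalised CPM in KO and 108 and 100.3 in WT. The window of Ly6a, which encodes Sca-1, was not marked, with 7.95 and 7.40 CPM in KO and 6.97 and 6.95 in WT. The stem cell regulators Runx1 and Myb had strong windows, at a mean of 140.1 and 115 CPM. Starts of hepatocyte genes were mostly unmarked (15 of 20), with Alb at 1.01 and 1.66 CPM in KO and 1.95 and 2.26 in WT.

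Promoters of 6 genes from the lists described below are printed. They include the 3 matched interferon-stimulated genes with the largest rise in KO and the granulocyte gene with the largest rise. The others are a lymphoid gene (Ebf1) and a mast cell gene (Il1rl1) with a fall. Ighm and Pax5 fell further than Ebf1 but had no matched promoter. Each line runs 5′ to 3′ on the gene's strand from 250 bases before to 50 bases after a RefSeq start (GRCm38.p6). Capitals mark matches, on either strand, to the core of the interferon-stimulated response element (GAAA, any 2 bases, GAAA) or to the GATA factor motif (AGATAA). The C/EBP motif (TTGCGNAA) was searched too and had no match in them.
Oas1a (chr5:120907476-120907775, minus strand): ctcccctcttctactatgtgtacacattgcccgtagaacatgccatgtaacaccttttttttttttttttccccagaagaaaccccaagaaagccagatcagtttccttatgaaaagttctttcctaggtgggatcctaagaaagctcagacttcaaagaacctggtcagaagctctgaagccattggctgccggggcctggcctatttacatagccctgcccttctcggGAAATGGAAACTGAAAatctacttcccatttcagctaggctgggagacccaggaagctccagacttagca
Lgals3bp (chr11:118401910-118402209, minus strand): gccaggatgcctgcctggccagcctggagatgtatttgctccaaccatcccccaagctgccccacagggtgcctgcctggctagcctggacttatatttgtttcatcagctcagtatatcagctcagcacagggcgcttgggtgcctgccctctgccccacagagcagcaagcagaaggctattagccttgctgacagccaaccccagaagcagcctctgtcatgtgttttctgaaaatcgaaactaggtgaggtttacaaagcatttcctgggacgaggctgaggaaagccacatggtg
Oas3 (chr5:120777610-120777909, minus strand): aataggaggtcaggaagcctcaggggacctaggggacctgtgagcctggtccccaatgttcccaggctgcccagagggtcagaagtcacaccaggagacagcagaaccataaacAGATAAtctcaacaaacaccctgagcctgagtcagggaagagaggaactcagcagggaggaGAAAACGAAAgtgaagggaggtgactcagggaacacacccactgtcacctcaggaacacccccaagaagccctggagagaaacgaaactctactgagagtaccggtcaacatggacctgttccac
Lcn2 (chr2:32387690-32387989, minus strand): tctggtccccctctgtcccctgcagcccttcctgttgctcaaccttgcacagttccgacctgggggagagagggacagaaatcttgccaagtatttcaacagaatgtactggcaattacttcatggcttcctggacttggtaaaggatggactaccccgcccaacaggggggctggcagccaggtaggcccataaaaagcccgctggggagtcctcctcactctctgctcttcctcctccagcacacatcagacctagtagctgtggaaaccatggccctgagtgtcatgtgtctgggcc
Ebf1 (chr11:44617850-44618149, plus strand): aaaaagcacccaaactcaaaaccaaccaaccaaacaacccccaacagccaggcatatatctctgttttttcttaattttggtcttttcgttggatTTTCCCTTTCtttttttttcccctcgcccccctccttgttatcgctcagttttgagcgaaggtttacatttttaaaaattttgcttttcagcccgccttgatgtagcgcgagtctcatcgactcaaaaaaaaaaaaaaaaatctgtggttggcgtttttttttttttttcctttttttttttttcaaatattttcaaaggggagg
Il1rl1 (chr1:40429320-40429619, plus strand): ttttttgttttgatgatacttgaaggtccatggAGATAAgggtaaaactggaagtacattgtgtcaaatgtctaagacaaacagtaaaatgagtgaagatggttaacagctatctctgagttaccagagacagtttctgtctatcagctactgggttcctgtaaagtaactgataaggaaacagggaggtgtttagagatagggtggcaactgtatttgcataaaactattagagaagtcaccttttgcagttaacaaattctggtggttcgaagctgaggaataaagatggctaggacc
The Oas1a promoter held 2 overlapping matches to the interferon element and the Oas3 promoter 1. The Lgals3bp and Lcn2 promoters held none of the 3 motifs. The Il1rl1 promoter held 1 GATA match, and the Ebf1 promoter a match to the interferon element on the other strand. These promoters were poor in CpG, with 9 CpG in the 300 bases at Ebf1, 1 at Il1rl1 and 3 in each of the others.

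The comparison of KO with WT asked where the mark differed in cells without Mettl3. Interferon-stimulated genes and granulocyte genes carried more of it in KO. Some genes of the red cell membrane and of B cell development carried less, relative to the other marked starts. These falls depended on the scaling and the strength limit. A fit that also took in the unmarked windows called 1 erythroid and 1 lymphoid start lower. A limit of 32 CPM left 3 erythroid and 0 lymphoid starts called lower. The libraries pool many cells, so a shift in the cell types within the sorted fraction and a change of the mark per cell cannot be told apart. Most marked starts moved little: 87.3% had a log2 fold change within 0.25 of 0.

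Of 15902 marked windows, edgeR's quasi-likelihood test called 662 at a Benjamini-Hochberg adjusted p under 0.05 (4.16%). In KO 334 were higher (2.10%), in 279 loci, and 328 were lower (2.06%), in 270 loci. The median over all marked windows was 0.01 on the log2 scale. Changes were mostly small: the higher windows had a median of 0.40 and the lower ones of -0.49, and 9 of the higher and 26 of the lower changed by 2-fold or more. Leaving out each library in turn, 352 of the 662 stayed called in all 4 fits and 0 changed sign. In every called window both KO libraries lay on one side of both WT libraries, which was also so for 50.0% of all marked windows. Of the higher windows 18 reached 16 CPM in KO but not in WT, and of the lower windows 61 reached it in WT but not in KO; these entered the test through the group in which they were high.

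The balance of higher and lower calls rested on the scaling. No spike-in is named in the sources used here, so changes are relative to the other marked starts. In a fit of all 51038 windows with enough counts, edgeR called 7.88%, with 3.23% higher and 4.66% lower. In that fit the marked windows had a median of 0.31, and 894 of them were called higher and 57 lower. Scaling by library size alone gave 913 higher and 364 lower with a median of 0.07. Marked windows held 91.2% and 89.2% of the counts in KO and 88.2% and 85.6% in WT, a difference of 3.36 percentage points (exact permutation test, two-sided p 0.333, the smallest that 2 against 2 libraries can give). The sections below give changes relative to the median of the marked windows.

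**Figure D2:**
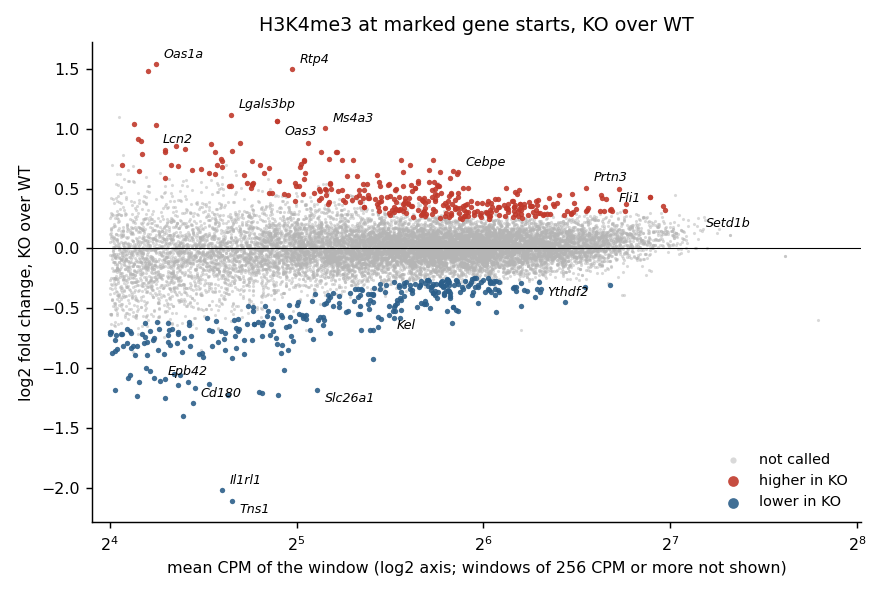
Log2 fold change of H3K4me3, KO over WT (vertical axis), against the mean CPM of the window (horizontal axis, log2) for the marked windows under 256 CPM; red points were called higher in KO, blue points lower. Called changes of 1 or more on the log2 scale are found among windows under 64 CPM, and Tns1 and Il1rl1 lie apart at the bottom.

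Libraries held 13836793 and 14451575 counts in KO and 14346267 and 11508783 in WT over the kept windows. Correlations of log2 values were 0.984 between the KO libraries, 0.982 between the WT libraries and 0.957 to 0.972 between genotypes. Replicate 1 differed from replicate 2 in both genotypes along a second component with 31.1% of the variance, beside 61.5% for the component that separated the genotypes. The 56 windows above 256 CPM were 31 mitochondrial ones and 25 others, 22 of them Gm-numbered models, and 0 of the 56 were called. No window on the X chromosome was called (0 of 365), nor on the Y (0 of 4). The Xist window, unmarked, had 9.25 and 1.25 CPM in KO and 5.02 and 2.52 in WT, and the Y-linked Ddx3y had 22.8 and 26.8 CPM in KO and 25.1 and 22.6 in WT, so that male cells were present in each library. In bulk RNA the Y-linked genes Eif2s3y, Kdm5d and Uty were called lower in KO (log2 fold changes of -2.51, -2.51 and -2.73). Their marks were not called. Uty RNA had 0, 6.00 and 5.17 CPM in KO 1, KO 2 and KO 3, against 17.2 to 29.99 in WT. The bulk libraries may therefore differ in their share of male cells. That share, and its bearing on the RNA changes given here, was not tested.

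Calls differed by the strength of the window. Between 16 and 32 CPM 52 of 3641 windows were higher and 129 lower (median -0.05), and between 32 and 64 CPM 185 of 7601 were higher and 166 lower (median 0.00). Between 64 and 128 CPM 97 of 4531 were higher and 33 lower (median 0.03). None of the 73 windows of 128 to 256 CPM was called (median 0.11). Among gene classes, protein-coding starts had 2.18% higher and 1.72% lower of 12213, and lincRNA starts 1.84% and 2.70% of 705. Of 216 snoRNA starts 1 was higher and 12 lower.

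The 12 named starts with the largest rise held 4 interferon-stimulated and 3 granulocyte genes. Oas1a (ENSMUSG00000052776, chromosome 5, start at 120907521, GRCm38.p5), an interferon-induced synthetase of the messenger 2-5A, had 32.4 and 30.9 normalised CPM in KO, against 12.3 and 9.25 in WT. The KO libraries lay above the WT libraries, with a log2 fold change of 1.54 (SE 0.17, edgeR adjusted p 0.0028). Rtp4 (ENSMUSG00000033355, chromosome 16, start at 23609919), an interferon-induced gene, had 55.4 and 48.4 normalised CPM in KO, against 20.6 and 15.9 in WT, and rose by 1.49 (SE 0.13, edgeR adjusted p 0.00104). Lgals3bp (chromosome 11, start at 118401852), a secreted galectin-binding protein induced by interferon, had 38.5 and 38.3 in KO and 17.98 and 17.5 in WT, a change of 1.11. Oas3 (chromosome 5, start at 120777661) had 41.7 and 48.4 in KO and 19.9 and 23.4 in WT, a change of 1.06. For both, the groups did not overlap, as in every called window.

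Ecm1 (ENSMUSG00000028108, chromosome 3, start at 95739567), an extracellular matrix protein, had 25.8 and 34.9 normalised CPM in KO, against 10.7 and 11.1 in WT. The gap between genotypes was wider than that between KO libraries (log2 fold change 1.48, SE 0.18, edgeR adjusted p 0.00422). Its RNA had 6.09, 6.45 and 6.82 CPM in KO and 5.64, 6.06 and 7.50 in WT and was not called (log2 fold change 0.00). The other risers were the zinc transporter Slc39a4 (1.04), the granule protein Lcn2 (1.03), the progenitor membrane protein Ms4a3 (1.00), Fignl2 (0.92), the Rap1 regulator Rap1gap (0.90), the kinase Aatk (0.88) and the calcium-binding S100a8 (0.88). Of these, Ms4a3 and S100a8 had higher RNA in KO, Fignl2 was too low in RNA to be tested, and the RNA of the others was not called.

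Tns1 (ENSMUSG00000055322, chromosome 1, minus strand), which encodes the focal adhesion protein tensin 1, had the largest fall of all named starts. At the start at 74001567 it had 10.4 and 11.3 normalised CPM in KO, against 42.6 and 51.2 in WT. The log2 fold change was -2.10 (SE 0.14, edgeR adjusted p 0.000203). The gene's most upstream start, at 74124447, had 23.7 and 26.2 CPM in KO and 22.0 and 22.4 in WT, so the fall was seen at the inner start and not at the outer one. The inner start at 74037133 lay between them, with 8.24 and 7.89 CPM in KO and 15.96 and 16.6 in WT. Tns1 RNA had 39.4, 34.0 and 37.6 CPM in KO, against 80.1, 98.9 and 79.3 in WT, a change of -1.23.

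Il1rl1 (ENSMUSG00000026069, chromosome 1, plus strand), the receptor for interleukin 33 on mast cells and other immune cells, had 10.1 and 11.95 normalised CPM at its first start (40429570) in KO, against 42.8 and 46.3 in WT. Both KO libraries were far below WT (log2 fold change -2.01, SE 0.14, edgeR adjusted p 0.000203). Its 4 other starts, 7 to 11 kb downstream, were near background, at 3.61 to 5.26 CPM in KO and 4.04 to 7.73 in WT. Il1rl1 RNA did not follow, with 9.15, 9.0 and 9.71 CPM in KO and 11.3, 7.98 and 7.11 in WT (log2 fold change 0.06, not called).

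The other 10 largest falls included genes of B cells and erythroid cells. Redrum, an erythroid long noncoding RNA gene, had 14.2 and 12.1 normalised CPM in KO, against 32.5 and 37.0 in WT (log2 fold change -1.40). Cd180, a toll-like receptor of B cells, had 14.2 and 14.7 in KO and 37.4 and 33.0 in WT (-1.29). The sulfate transporter Slc26a1 had 22.4 and 25.8 in KO and 54.3 and 54.8 in WT (-1.18), and its RNA fell by 3.21 on the log2 scale. Groups did not overlap at any of these starts, as in every called window. The chemokine receptor Ccr2 (-1.17), Nipal2 (-1.18), Paqr9 (-1.12), the red cell membrane gene Epb42 (-1.10) and Nxpe4 (-1.08) followed, all but Nipal2, which was not tested, with lower RNA. Nxpe4 was not called without WT 2 (edgeR adjusted p 0.0707).

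The immunoglobulin heavy chain locus on chromosome 12 carried less of the mark in KO over a stretch of starts. All 8 marked windows between Ighm (start at 113422730) and Ighj1 (start at 113429833), a span of 7.10 kb, were lower in KO; their windows overlap and share reads. Ighj4 had 18.7 and 15.2 normalised CPM in KO, against 48.2 and 30.4 in WT (log2 fold change -1.22, SE 0.20, edgeR adjusted p 0.0111). Ighm, the constant region of the first antibody class made, had 13.9 and 10.2 in KO and 34.2 and 21.9 in WT (log2 fold change -1.23). The WT libraries differed more from each other here than the KO libraries did. Ighm RNA fell as well, by 0.98 on the log2 scale.

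**Figure D3:**
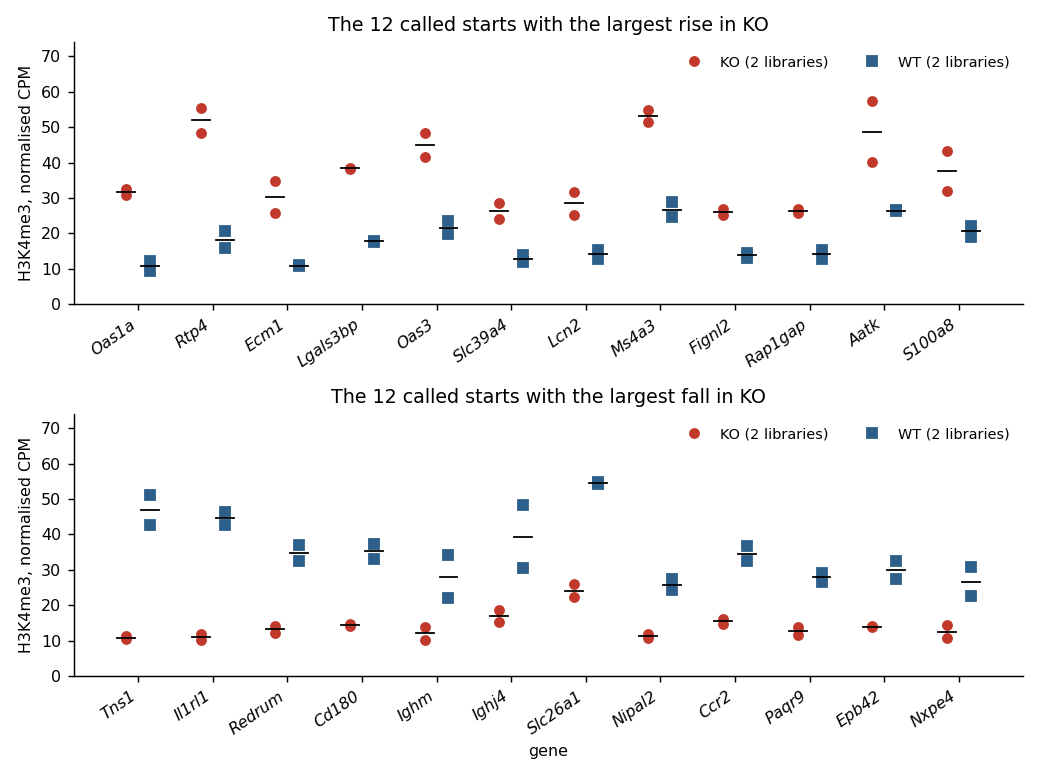
Normalised CPM of H3K4me3 (vertical axis) at the 12 named starts with the largest rise (top) and fall (bottom); circles are KO libraries, squares WT libraries and bars the mean of 2. The KO and WT libraries do not overlap at any of the 24 starts, which holds for every called window and for 50.0% of all marked windows.

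Interferon-stimulated genes are switched on after a cell senses virus or double-stranded RNA. Of 89 such genes 64 were marked, and 24 of these were higher and 0 lower in KO, against 2.10% and 2.06% of all marked windows. Their median log2 fold change was 0.25, against 0.01 over all marked windows. Of the 24, 6 reached 16 CPM in KO only. The count was 16 with DESeq2 and 18 to 23 with 1 library left out, and 16 of the 24 stayed called in all 4 of those fits. Without KO 2 or without WT 1, 1 was called lower.

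Among sensors of foreign RNA 3 of 7 marked starts rose. Dhx58, the helicase LGP2, had 54.3 and 54.3 normalised CPM in KO, against 36.7 and 34.5 in WT (log2 fold change 0.60). Ifih1, the sensor MDA5, had 69.4 and 67.4 in KO and 53.4 and 50.4 in WT (0.40), and the RNA-editing enzyme gene Adar 58.7 and 59.4 in KO and 49.9 and 43.8 in WT (0.33). The adaptor gene Mavs lay at -0.24 and was not called (edgeR adjusted p 0.0915). Adar was not called without WT 2 (edgeR adjusted p 0.125).

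Among the groups of interferon-stimulated genes the 2-5A synthetase group had the highest median, 0.73, with 6 of 7 marked starts higher. Beside Oas1a and Oas3 these were Oas1b (0.74), Oas1c (0.73), Oasl2 (0.59) and Oasl1 (0.54). Oasl2 lost its call whichever library was left out (edgeR adjusted p up to 0.141), and Oasl1 without KO 2 (0.200). Oas1b and Oas1c are neighbours whose windows share reads, and the family has near-identical copies whose reads the counting may have split. Oas1g and Oas2, the other members of this group, were not marked by the limit. Oas1g had 15.2 and 15.4 CPM in KO and 3.62 and 2.87 in WT. Oas2 had 18.8 and 19.7 in KO and 3.49 and 5.39 in WT. The 25 unmarked interferon-stimulated genes did not all lie higher in KO. Ifit3b had 6.65 and 6.44 CPM in KO and 11.3 and 12.5 in WT.

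In the ISG15 pathway, a ubiquitin-like tag on proteins, 2 of 5 starts rose. Usp18, which removes the tag and dampens interferon signalling, had 76.7 and 72.7 normalised CPM in KO, against 50.0 and 45.4 in WT (log2 fold change 0.64). Isg15 itself had 59.7 and 61.6 in KO and 50.2 and 50.6 in WT (0.27, edgeR adjusted p 0.0462), a small rise beside the 3.45 of its RNA. It was called in 1 of the 4 fits that leave out a library, the one without KO 1 (largest edgeR adjusted p 0.129). Of 5 transcription factor genes, Irf9 rose (0.55), and Stat2 (0.10), Irf1 (0.12) and Irf7 (0.25) were among those not called. Among immunity GTPases Igtp (0.49) and Irgm2 (0.35) rose of 7 marked.

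Among 33 marked genes of other antiviral effectors 10 rose. These were Rtp4, Lgals3bp, the nuclear body protein gene Sp100 (0.82), Xaf1 (0.65), Slfn2 (0.62), Trim30a (0.62), the membrane protein genes Ifitm3 (0.53) and Bst2 (0.50), Slfn5 (0.46) and Helz2 (0.37). With 1 library left out Xaf1 (whichever library, edgeR adjusted p up to 0.105), Slfn5 (KO 1 or WT 2, up to 0.0787), Helz2 (KO 2 or WT 2, up to 0.0592) and Sp100 (WT 2, 0.0873) lost their calls. Ifit1, Cxcl10 and Rsad2 were not marked, at a mean of 12.4, 14.2 and 14.6 CPM. The 4 listed chemokine starts were all unmarked. Starts of the MHC class I pathway, which interferon also induces, showed 0 calls of 13, near the share of 4.16% called over all marked windows. Their median was 0.08. The strongest, the proteasome activator gene Psme2, had 112 and 96.2 normalised CPM in KO and 100.5 and 88.4 in WT.

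On the log2 scale the mark changed less than the RNA at these genes, with medians of 0.25 and 0.84 over the 64 marked. Window counts and RNA counts are unlike measures from different libraries. RNA was higher in KO at 52 of the 64 marked interferon-stimulated genes, and the mark was higher at 23 of those 52. Over all marked genes with tested RNA, 24.5% had higher RNA. In 51 of the 52 the log2 change of the mark was smaller than that of the RNA, with medians of 0.32 for the mark and 0.96 for the RNA. These 52 were picked by their RNA call, which favours a larger RNA change. Sp100 was the 1 exception, at 0.82 and 0.59. Oas1c had a higher mark and no RNA call.

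Motif matches were described in the 9633 marked windows (60.6%) with a RefSeq promoter whose start lay within 1.5 kb. The interferon element core was found in 17 of 196 promoters of higher starts (8.67%), 3 of 155 of lower starts (1.94%) and 271 of 9282 uncalled ones (2.92%), beside 3.44% of all 32851 promoters in the table. Among interferon-stimulated genes it was found in 11 of 20 promoters with a higher mark and in 14 of 31 without a call. The GATA motif was found in 13.5% of lower, 9.18% of higher and 5.40% of uncalled promoters, and in 11.2% of all. The C/EBP motif was found in 0 of 196 and 0 of 155 promoters of called starts and in 1.35% of uncalled ones. Promoters with fewer than 10 CpG in the 300 bases made up 39.3% of those of higher starts, 32.9% of those of lower starts and 11.9% of the uncalled ones. At like strength this held for the higher starts, with a median of 15 CpG against 22 at uncalled ones between 32 and 64 CPM and 21 against 26 between 64 and 128 CPM. The lower starts had fewer between 16 and 32 CPM (9 against 17) but 22 against 22 and 27 against 26 in the stronger classes.

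Granulocyte genes had the largest share of calls of any list. Of 41 genes 27 were marked, 17 were higher and 0 lower in KO, against 2.10% and 2.06% of all marked windows. Their median log2 fold change was 0.43. Lcn2 and S100a9 had WT means of 14.1 and 14.9 normalised CPM, so they passed the limit of 16 CPM through KO. The count was 15 to 18 with 1 library left out and 15 with DESeq2.

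Transcription factors of the lineage rose at 4 of 6 starts. Cebpe, which drives late granulocyte maturation, had 73.6 and 86.0 normalised CPM in KO, against 46.0 and 57.0 in WT (log2 fold change 0.64, SE 0.10, edgeR adjusted p 0.0102). Cebpb (0.47), Gfi1 (0.37) and Cebpa (0.30) were higher by less, and Cebpa was not called without WT 2 (edgeR adjusted p 0.0799). Cebpd lay at 0.13 and was not called, while its RNA rose by 2.23.

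Granule genes rose at 7 of 11 marked starts, 4 of 5 for late granule and S100 genes and 3 of 6 for primary granule genes. Lcn2, which binds bacterial iron carriers, had 25.3 and 31.7 normalised CPM in KO, against 12.7 and 15.4 in WT (log2 fold change 1.03, SE 0.17, edgeR adjusted p 0.0122). Its RNA was low in both, at 1.45, 2.36 and 1.87 CPM in KO and 1.57, 2.64 and 0.341 in WT. S100a8 had 32.1 and 43.2 normalised CPM of the mark in KO and 19.0 and 22.2 in WT (0.88); S100a9 and Pglyrp1 rose by 0.79 and 0.81. Pglyrp1 lost its call without KO 2 (edgeR adjusted p 0.0511), and S100a9 without KO 2 or WT 1 (up to 0.113). Of the azurophil granule genes Prss57 (0.56), Prtn3 (0.50) and Mpo (0.50) rose, and Elane (0.17) and Ctsg (0.16) were not called, although Ctsg RNA rose by 2.32.

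All 4 marked starts of the NADPH oxidase, the enzyme of the oxidative burst, rose, among them Ncf4 (0.50), Ncf1 (0.48) and Cyba (0.43). RNA was higher for Ncf4 and Cyba and lower for Ncf1 (-0.25). Of 6 receptor starts Ms4a3 and Sirpa (0.30, not called without WT 2, edgeR adjusted p 0.0974) rose. Ms4a3 had 51.4 and 55.0 normalised CPM in KO, against 24.6 and 28.8 in WT (log2 fold change 1.00, SE 0.10, edgeR adjusted p 0.00217).

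Lists of other lineages had few marked starts, so single calls in them say little beside the 4.16% called over all marked windows. Over all marked genes with tested RNA, 21.0% had lower RNA in KO. Of 6 marked mast cell and basophil starts the growth factor receptor Csf2rb (0.44) and the factor Gata2 (0.35) rose and Il1rl1 fell; 4 were higher without KO 1. Of 12 megakaryocyte starts Thbs1 (0.67) and Fli1 (0.33, not called without WT 2, edgeR adjusted p 0.189) rose. The count was 5 without KO 1, 6 with library size alone and 1 without the strongest and mitochondrial windows. Of 9 monocyte and macrophage starts Csf1r rose (0.39) and Ccr2 fell (-1.17). In the dendritic list Zbtb46 fell (-0.35) of 9, beside lower RNA at 8 of the 9; 2 were lower without KO 1 or without WT 2.

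**Figure D4:**
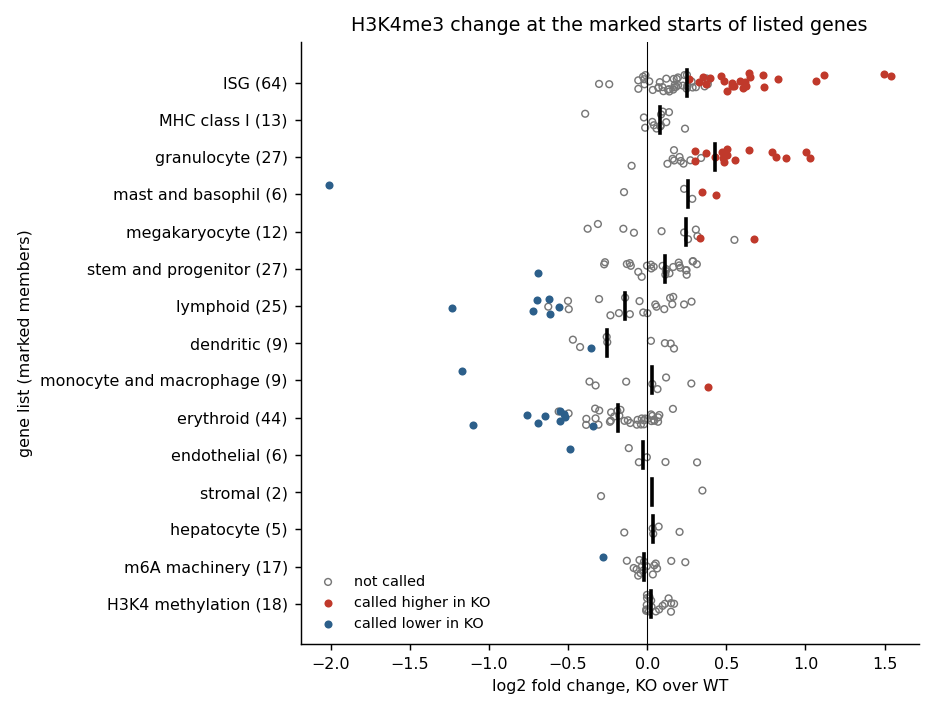
Log2 fold change of H3K4me3, KO over WT (horizontal axis), at the marked starts of each gene list (rows, number marked in brackets); filled points were called, red higher and blue lower in KO, and black bars are medians. Interferon-stimulated (ISG) and granulocyte members reach furthest to the right, and called erythroid and lymphoid members lie on the left.

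Erythroid starts were the opposite of the granulocyte starts, with 0 of 44 higher and 9 lower in KO and a median of -0.18. Over all marked windows 2.10% were higher and 2.06% lower. Of the 9, 8 lay in the red cell membrane group of 16 and 1 in the globin and cytosol group of 7. Epb42, which anchors the membrane skeleton, had 13.7 and 14.1 normalised CPM in KO, against 27.5 and 32.5 in WT (log2 fold change -1.10, SE 0.15, edgeR adjusted p 0.00593). With a KO mean of 13.9 normalised CPM, Epb42 passed the limit of 16 CPM through WT. Tspo2 (-0.69), Add2 (-0.64), and the blood group genes Kel (-0.55), Rhag (-0.55) and Rhd (-0.52) also fell. RNA was lower in KO at all 8 called membrane starts, against 21.0% of all marked genes with tested RNA.

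The membrane genes' fall was not seen at the lineage's regulators. None of 8 erythroid transcription factor starts was called, with log2 fold changes of -0.14 to 0.05, among them Tal1 at 137 and 123 normalised CPM in KO and 136 and 126 in WT. None of 7 heme synthesis starts was called (median -0.04), with lower RNA at 6 of them, against 21.0% of all marked genes with tested RNA. With 2.06% of all marked windows called lower, 0 calls among 8 or 7 starts say little by themselves. Of 7 globin and cytosol starts the globin gene Hba-a2 was lower (-0.53); it and Hba-a1 (-0.38, not called) are near-identical copies. In the fit of all windows, which moved all marked starts up, the erythroid median was 0.13 and 1 start was called lower. With 1 library left out 9 to 16 erythroid starts were lower, 14 without KO 1 and 16 without WT 1; Hba-a2 lost its call without WT 2 (edgeR adjusted p 0.246).

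Lymphoid starts had 0 higher and 6 lower of 25 marked, with a median of -0.14, against 2.10% and 2.06% of all marked windows. Ebf1, a factor that commits cells to the B lineage, had 17.9 and 17.8 normalised CPM in KO, against 30.4 and 27.3 in WT (log2 fold change -0.70, SE 0.14, edgeR adjusted p 0.0224). Pax5, which acts after Ebf1, had 12.99 and 15.1 in KO and 23.4 and 22.8 in WT (-0.72). The recombinase gene Rag2 (-0.56) fell, as did Ighm. Btla (-0.62, edgeR adjusted p 0.0493), a receptor of lymphocytes, fell at the mark while its RNA rose by 0.68.

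With 1 library left out 2 of the 6 calls held in all 4 fits, those of Ighm and Rag2. Ebf1 was lost without WT 1 (edgeR adjusted p 0.0853), Pax5 without KO 1, WT 1 or WT 2 (up to 0.103) and Btla without KO 2, WT 1 or WT 2 (up to 0.154).

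These were weak windows: 3 of the 6 were under 16 CPM in KO, and among 11 lymphoid windows of at least 32 CPM 0 were called. In the fit of all windows 2 lymphoid starts were higher and 1 lower, with a median of 0.17. Il7r and Rag1 were not marked, with 6.65 and 2.49 CPM in KO and 21.6 and 10.8 in WT for Il7r and 4.77 and 4.15 in KO and 13.7 and 14.1 in WT for Rag1. Strong lymphoid starts such as Ikzf1 (158 and 135 normalised CPM in KO, 147 and 117 in WT) and Bcl11a (198 and 167 in KO, 179 and 146 in WT) overlapped between genotypes.

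Stem and progenitor starts had 0 higher and 1 lower of 27, the factor Prdm16 at 23.5 and 18.6 normalised CPM in KO and 36.1 and 31.4 in WT (log2 fold change -0.69, edgeR adjusted p 0.0294, and 0.0658 without WT 1). The counts rested on single libraries: without WT 1, 8 were higher and 0 lower (median 0.27), without WT 2, 0 were higher and 4 lower (median -0.02), and without KO 2, 2 were higher and 2 lower. Without KO 1, 0 were higher and 2 lower. Over all marked windows 2.10% were higher and 2.06% lower, so 0 and 1 of 27 lie near these shares. RNA of 16 of the 27 was lower, against 21.0% of all marked genes with tested RNA. Mecom and Hlf, factors of stem cells, had log2 changes of 0.14 and 0.11 in the mark, not called, and of -1.08 and -1.13 in RNA. In lists of cells that the sort should leave out, Eng fell (-0.49) among 6 endothelial starts, a gene also used by blood stem cells, and 0 of 2 stromal and 0 of 5 hepatocyte starts were called; the strongest of these, Pdgfra and Apoh, lay at 0.35 and 0.03.

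At the Mettl3 start (ENSMUSG00000022160, chromosome 14, start at 52305128) the mark was alike in size, at 55.1 and 58.2 normalised CPM in KO and 58.6 and 60.2 in WT (log2 fold change -0.07, SE 0.07, edgeR adjusted p 0.621). Mettl3 RNA had 4.18, 6.34 and 5.51 CPM in KO, against 42.9, 43.0 and 32.6 in WT. The m6A list (writers, readers and erasers) had 17 genes, all marked. Of these Ythdf2 was lower, at 81.4 and 79.9 normalised CPM in KO and 95.9 and 99.6 in WT (log2 fold change -0.28, edgeR adjusted p 0.04). Ythdf2 RNA rose by 1.05, and in the fit of all windows its mark lay at 0.03 and was not called; without KO 2 or WT 2 it lost its call too (edgeR adjusted p up to 0.103). RNA of 10 of the 17 was higher, against 24.5% of all marked genes with tested RNA. The marks of the 17 had a median of -0.02. None of 18 genes of H3K4 methylation and demethylation was called, with log2 changes of -0.01 to 0.17. Setd1b, the strongest, had 169 and 161 normalised CPM in KO and 167 and 145 in WT. With 4.16% of all marked windows called, 1 call of 17 and 0 of 18 lie near that share.

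The mark and the RNA of a gene were set side by side for 12128 marked genes with tested RNA. In bulk RNA edgeR called 44.2% of 14405 genes, 21.6% higher and 22.6% lower in KO. Of 276 genes with a higher mark and tested RNA, RNA was higher at 136 (49.3%), lower at 31 (11.2%) and not called at 109. Of 225 with a lower mark, RNA was lower at 119 (52.9%), higher at 15 (6.67%) and not called at 91. Genes with an uncalled mark had higher RNA at 24.3% and lower RNA at 20.6% of 11627.

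By the size of the RNA change, calls of the mark were as follows. Of 32 marked genes with RNA higher by 2 or more on the log2 scale, the mark was higher at 19 (59.4%), with a median of 0.50. Of 303 with RNA higher by 1 to 2, it was higher at 42 (13.9%, median 0.12). Of 100 with RNA lower by 2 or more, the mark was lower at 10 (10.0%), with a median of -0.08. Across the 12128 genes the log2 changes had a Pearson r of 0.28 and a Spearman rho of 0.20, as a description over genes, which are not independent.

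**Figure D5:**
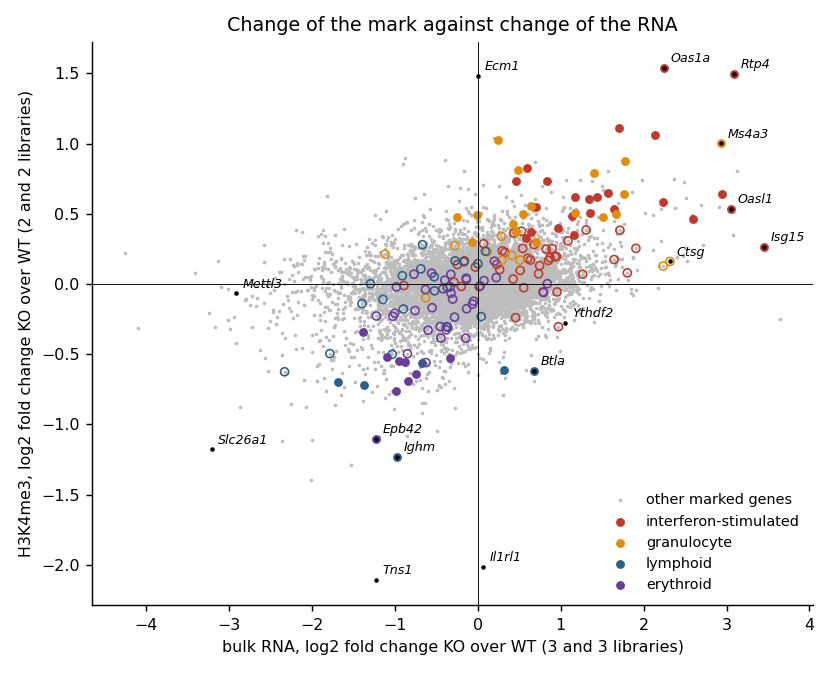
Log2 fold change of H3K4me3 (vertical axis) against that of bulk RNA (horizontal axis), both KO over WT, for 12128 marked genes; coloured points are members of 4 lists, filled where the mark was called. Rtp4 and Oas1a lie at the upper right, Ecm1 and Il1rl1 on the line of no RNA change, and Mettl3 far left on the line of no change in the mark.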

How the data were processed

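H3K4me3 was measured by CUT&RUN in 2 KO and 2 WT libraries of sorted LSK cells, and polyA RNA of the same fraction in 3 and 3. Both tables hold raw counts as deposited by the authors, per window of 3 kb at transcript starts and per gene, per the labels. The submitters' processing notes name build GRCm38.p5, Seurat 3.0, edgeR, bedtools, Picard 2.9.0, Bowtie2 2.2.9 and STAR 2.5.3a, and give no roles; the counting tool, strand setting and duplicate removal are not given in the sources used here. Of 130983 deposited windows 123052 were distinct. Per gene the window of highest mean count was taken (the first in file order at 2080 marked genes with ties), and windows with a mean of 16 CPM over the 4 libraries were tested.

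Counts were fitted with edgeR 4.0.16 (R 4.3.3; TMM over marked windows, quasi-likelihood F test, Benjamini-Hochberg adjustment over all marked windows, threshold 0.05; SE is the log2 fold change over the root of F); RNA was fitted likewise after filterByExpr, which kept 14405 genes. The labels number the samples as biological replicates, without naming litters or pools. Same-numbered bulk libraries deviated together (correlations 0.338, 0.119 and 0.116), so a fit with that block was run; 2 H3K4me3 pairs were too few for such a reading. Alternatives were RLE, library-size and loess scaling, other strength filters, DESeq2 1.42.0, a replicate block and leaving out each library. Precision is limited by 2 libraries per genotype.

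The members, lists and rules were chosen with earlier results of these data known. Named genes are the 12 largest rises and falls among called windows (no Gm or Rik names, starts within 3 kb once) and, per list, up to 6 called members per direction or, without a call, the strongest member, plus Mettl3; further genes were named after their values were seen. Promoters are RefSeq's (GRCm38.p6); Rtp4 and Ighm had no match, and the Pax5 entry lies outside its window. Some genes of the lists are counted but not reported here by name.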

Additional observations from a re-analysis of the deposited data

How the results depend on the processing

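Of the 662 called windows 47 had the other sign in the fit of all windows and 0 in the other alternatives. Of the 48 named genes called, between 42 and 48 stayed past the threshold under RLE, library size, loess, DESeq2, the block and each left-out library, and 32 did so in the fit of all windows, where Ythdf2 turned to 0.0298. With 1 library left out, windows higher numbered 296 to 701 and lower 322 to 526; the most higher came without KO 1 and the fewest without KO 2. Interferon-stimulated starts higher numbered 18 to 23, granulocyte 15 to 18, erythroid lower 9 to 16, lymphoid lower 4 to 6, higher windows with higher RNA 120 to 212 and lower windows with lower RNA 94 to 168, bulk libraries included. The cause of these shifts was not tested.

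Library size alone gave 913 windows higher, 287 of them with higher RNA. The fit of all windows gave 894 higher and 57 lower marked windows, 222 and 21 with RNA called the same way. It called 1 erythroid and 1 lymphoid start lower. Marked windows had a median of 0.31 in that fit, which scales them relative to all windows. Whether the mark as a whole differed between genotypes was not tested. A limit of 32 CPM tests fewer windows and gave 207 lower, 75 with lower RNA, and 11 interferon-stimulated, 3 erythroid and 0 lymphoid calls. DESeq2 gave 176 higher and 200 lower, 79 and 79 with RNA called the same way. Leaving out mitochondrial windows and those over 256 CPM, an alternative chosen after seeing the data, gave 279 and 300.

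The replicate block gave 2500 higher and 2223 lower windows, 646 and 562 with RNA called the same way, 47 interferon-stimulated starts higher and 2 lower, 0 erythroid higher and 26 lower, 5 lymphoid higher and 11 lower, and 11 stem and progenitor higher and 3 lower. Deviations of the same-numbered H3K4me3 libraries correlated (0.60), but the labels do not say that a number marks a shared litter or day, and 2 pairs cannot settle it. The bulk block moved no count by over 1.5 times (144 and 122 windows with RNA called the same way).

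With 2 libraries a genotype, changes under about 0.24 on the log2 scale were not called at any strength, and an uncalled start is not shown to be equal. Window overlap, unknown duplicate handling and mapping in repeat-like models limit single starts.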

Other observations

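Single called starts outside the lists are given here. They were chosen after their values were seen, so they stand for no group, and uncalled genes of the same kinds were not tallied. Higher in KO were the guanine deaminase gene Gda with 44.9 and 55.3 normalised CPM in KO, against 26.4 and 31.2 in WT (log2 fold change 0.80), the receptor Clec5a (0.74), Igsf6 (0.74), Gpr84 (0.52) and Plac8 (0.39), all with higher RNA. The Fc receptor chain gene Fcer1g was higher by 0.33, with no RNA call (0.14), and lost its call without KO 2 or WT 1 (edgeR adjusted p up to 0.166). The feedback inhibitors of cytokine signalling Socs1 (0.36) and Socs3 (0.38) and the inflammatory caspase gene Casp4 (0.65) were higher. The kinase gene Ikbke, upstream of interferon production, had 64.2 and 65.7 in KO and 41.8 and 41.4 in WT (0.64), with no RNA call (-0.03). Pkm (0.49), Gpi1 (0.39) and Gapdh (0.28), which encode enzymes of glycolysis, were higher as well. Casp4 and Gapdh lost their calls without KO 2 or without WT 1 (edgeR adjusted p up to 0.134 and 0.225).

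Lower in KO were further single starts. The microRNA genes Mir144 and Mir451a, neighbours that share reads, had log2 changes of -0.51 and -0.52, with Mir451a at 40.8 and 45.2 normalised CPM in KO and 58.4 and 65.2 in WT. Hemgn (-0.45), Slc14a1 (-0.41), the red cell pyruvate kinase gene Pklr (-0.38) and Tmod1 (-0.28) followed. Bmp4, Pax6 and Otx1, whose RNA was too low to be tested, were lower too, Bmp4 with 13.7 and 13.97 in KO and 22.1 and 26.7 in WT (-0.81), and Pax6 (-0.80) and Otx1 (-0.70). In all of these the KO libraries lay on one side of the WT libraries, as in every called window. Calls lost without WT 2 were those of Pklr, Tmod1, Bmp4, Pax6 and Otx1 (edgeR adjusted p 0.0578 to 0.169).

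At some starts mark and RNA moved apart. The cell death gene Bmf had 60.1 and 69.7 normalised CPM of the mark in KO, against 50.7 and 52.0 in WT (0.34), and its RNA had a log2 change of -1.93. Efna1 showed 0.34 and -1.85. Pelo, a factor that rescues stalled ribosomes, showed -0.27 in the mark and 1.40 in RNA. With 1 library left out, Bmf lost its call without KO 2 (edgeR adjusted p 0.166), Efna1 without KO 1 or WT 2 (up to 0.0898) and Pelo whichever library was left out (up to 0.0709). What sets these apart was not tested.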
